A study of Mus musculus with 4 samples.

Results

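Heat shock and small chaperone genes were examined in tibialis anterior (TA) muscle of young and old mice. The group holds 10 genes, taken by symbol from the deposited expression values: Hspa1a, Hspa1b, Hsph1, Hsp90aa1, Hsp90ab1, Hspb1, Hspb6, Hspb7, Hspb8 and Bag3. All 10 had a value in every sample, out of 20340 gene labels with a value in all 4 samples, and all 10 were among the 10266 genes tested. The samples were mRNA-seq libraries of TA, a fast muscle of the shin, from wild-type C57BL/6 mice, and no treatment is named for either age. Libraries Old 1 and Old 2 came from mice aged 20 months, and Young 1 and Young 2 from mice aged 3 months. Mice were picked without regard to sex, and the sex behind each library, and whether it came from a single mouse or a pool, was not given in the sources used here. Triplicates are mentioned in the description of the design, while the labels list 2 libraries per age.

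Chaperones bind unfolded proteins and keep them from clumping until they are refolded or removed. Small heat shock proteins (Hspb genes) hold unfolding clients, the HSP70 proteins (Hspa1a, Hspa1b) refold them with ATP, Hsph1 exchanges the nucleotide on HSP70, and the HSP90 proteins finish the folding of kinases, receptors and myosin. Bag3 links HSP70 to Hspb8 and hands damaged filamin of the muscle Z-disc to autophagy. Many of these genes are switched on by the factor Hsf1, which binds heat shock elements, arrays of GAA units in alternating orientation. Small heat shock proteins are also very abundant in resting striated muscle, above all in the heart and in slow fibers.

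The values are FPKM, the sequenced fragments per kilobase of transcript, scaled to the mapped fragments of the sample. The division by length lets levels be compared between genes of a sample, less surely for genes that share sequence with others. The samples of an age differed by a factor close to 2: over 9293 tested genes above 0 in all 4 samples, the median ratio was 2.16 for Old 1 over Old 2 and 2.12 for Young 2 over Young 1. The factor was not the same for all genes. Summed FPKM came to 698130 (Old 1) and 226747 (Old 2) in old muscle, and to 251294 (Young 1) and 739302 (Young 2) in young muscle, a wider gap than the medians. Once the median factor was set aside, samples of an age were close at medium levels and less so elsewhere. Among genes averaging 30 to 100 FPKM, log2 ratios scattered with a robust SD of 0.05 for Old 1 over Old 2 and 0.05 for Young 2 over Young 1, against 0.37 for Old 1 over Young 2 and 0.39 for Old 2 over Young 1. Over all 9293 genes the SD was 0.23 and 0.22 within an age, against 0.42 and 0.46 between ages. At a mean of 1 to 3 FPKM in the samples compared, it was 0.38 and 0.40 within an age, against 0.44 and 0.46 between ages, and the factor was 2.77 and 2.69. Hspa1a and Hspa1b, with values from 0.240 to 3.94 FPKM, lay partly below this range. Their own factors were larger, 3.54 and 4.22 for Old 1 over Old 2, and 2.93 and 2.82 for Young 2 over Young 1. The study describes its sequencing experiments as independent. The spread within an age may still be technical, and if the samples of an age are the same library, each age has n = 1. Old 1 and Young 2 shared a scale, with a median ratio of 0.992, and so did Old 2 and Young 1, with 0.985. The ages are therefore compared within these crossed pairs, a pairing taken from the values and not from the labels, and each sample is given by its own value. Each pair holds 1 sample per age, so its ratio carries no replicate error. The shared scale is a median and need not hold for every abundant gene. For the muscle marker Tnnc2, Old 1 over Young 2 was 1.60 and Old 2 over Young 1 was 0.754, while for Pvalb they were 1.02 and 1.03.

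The small heat shock gene Hspb6 was the highest of the 10 genes in every sample and was lower in old muscle in both pairs, as were Hspb7 and Hspb1. Hspb8, of the same family, was slightly higher in old muscle. The stress-inducible HSP70 genes Hspa1a and Hspa1b had the lowest levels and were also lower in old muscle, Hspa1b by the largest ratio of the 10 genes in both pairs. Hsp90ab1, the constitutive HSP90, was higher. In all, 5 of 10 genes were at least 1.5-fold lower in old muscle in both pairs, against 9.37% of the 9293 genes, and 1 of 10 was at least 1.5-fold higher in both, against 6.64%. At 2-fold the counts were 4 lower, against 2.60% of the genes, and 0 higher, against 1.51%. Hspa1a and Hspa1b are among the lower genes at both thresholds, though they share much of their sequence and lie near 1 FPKM.

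With the ages compared as deposited, none of the 10 genes passed the test over all genes. With limma on log2(FPKM + 1), 0 of 10 had an adjusted p under 0.05 (adjusted p = 1.00 for each, Benjamini-Hochberg), and 0 of 10 had an unadjusted p under 0.05. The background was small too, with 0.175% of the 10266 genes called higher and 0.127% called lower. The standard errors of the 10 log2 fold changes ran from 0.94 to 1.24, about the size of the factor between samples of an age. In this fit they follow a trend with mean level pooled over all genes, with 20532 degrees of freedom. The standard error printed for a gene is therefore not its own replicate spread, and the calls of this fit do not use that spread. With the crossed pairs as a block, limma called 3 of the 10 genes higher and 6 lower, all but Hsp90aa1 (adjusted p from 0.00565 to 0.307, Benjamini-Hochberg), but it also called 27.4% of all genes higher and 32.9% lower. That block was taken from the values, and its small errors rest on samples of an age that may not be independent. With quantile normalization, limma called 0 of 10 higher, against 1.16% of all genes, and 1 of 10 lower (Hspb7), against 1.83%. With 2 samples against 2, an exact permutation test (two-sided) allows no p under 0.333. The median log2 fold change (old minus young) was -0.50 over the 10 genes and -0.01 over the genes tested.

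**Figure D1:**
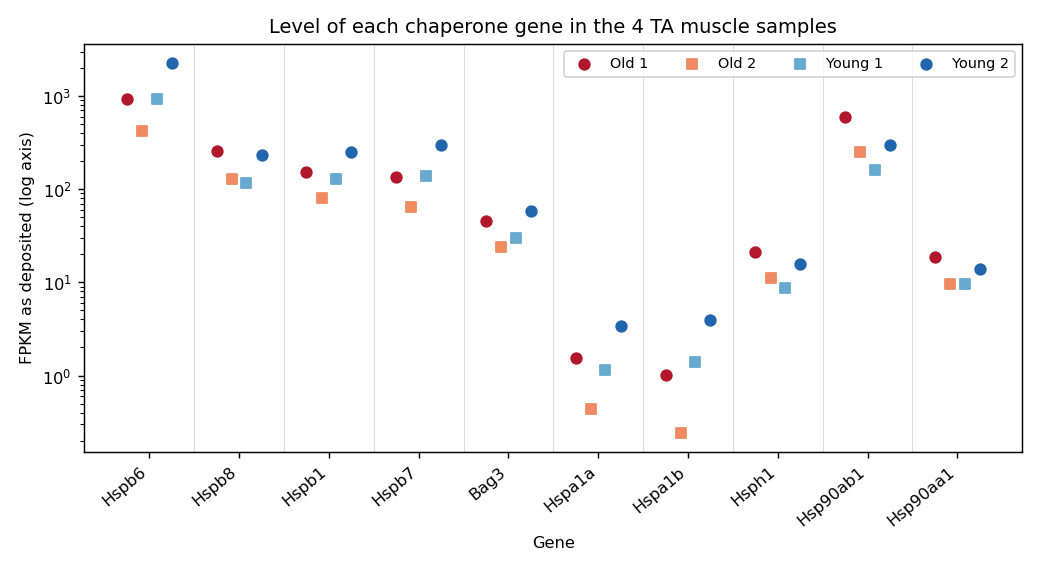
FPKM (log axis) of the 10 chaperone genes in Old 1, Old 2, Young 1 and Young 2, where each point is a sample and samples that share a scale have the same marker. Hspb6 ran from 418 to 2289 FPKM, and the points of Hspb7 and Hspb6 in old samples sit below those of the young sample with the same marker.

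The upstream windows of the stress-inducible genes are shown because Hsf1 is known to act through such upstream sequence, and because Hspa1a and Hspa1b differ so little that their readouts are hard to separate. Windows were the 250 bases before the RefSeq transcript start (build GRCm38.p6, the assembly of mm10), and 8 of the 10 genes had at least 1 window. Hsp90aa1 and Hsp90ab1 had none in the table used. The motifs searched were GAANNTTC and TTCNNGAA, each of which reads the same on both strands. At least 1 of them was present for 5 of the 8 genes, and in 14.6% of 27018 genes. The longer form with a further unit after 2 bases was present for 0 of the 8 genes and in 0.514% of all genes. The windows of Hspa1a, Hspa1b and Hspb1 are printed, since those of Hspb6 and Hsph1 run into transcribed sequence of other starts. Capitals mark the matches, and the sequences are written 5′ to 3′ on the strand of the gene.
Hspa1a, minus strand, chr17:34972157-34972406: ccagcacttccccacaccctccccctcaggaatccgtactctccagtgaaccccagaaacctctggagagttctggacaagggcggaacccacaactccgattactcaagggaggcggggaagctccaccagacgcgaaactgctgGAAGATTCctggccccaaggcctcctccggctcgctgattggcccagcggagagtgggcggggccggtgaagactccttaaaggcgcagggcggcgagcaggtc
Hspa1b, minus strand, chr17:34959239-34959488: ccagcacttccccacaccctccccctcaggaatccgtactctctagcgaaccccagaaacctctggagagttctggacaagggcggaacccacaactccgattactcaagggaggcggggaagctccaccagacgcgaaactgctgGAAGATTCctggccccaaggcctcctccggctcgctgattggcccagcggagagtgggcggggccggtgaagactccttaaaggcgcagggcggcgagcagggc
Hspb1, plus strand, chr5:135887669-135887918: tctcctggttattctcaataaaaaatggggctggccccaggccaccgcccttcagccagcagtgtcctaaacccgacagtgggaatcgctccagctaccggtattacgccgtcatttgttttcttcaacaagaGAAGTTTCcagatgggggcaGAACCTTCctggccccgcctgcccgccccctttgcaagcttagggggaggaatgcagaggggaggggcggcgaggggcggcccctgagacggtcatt

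The windows of Hspa1a and Hspa1b were identical at 247 of 250 positions, and their match began at position -104 from the transcript start in both. Hspb1 had a match at -117 and another at -97. Hspb6 had a match at -120 in the window of its downstream start and none in the other, and the match of Hsph1 lay at -54 or -33, depending on the start used. No match was found in the windows of Hspb7, Hspb8 and Bag3, which says only that these letters are not there. Genes with a match lay on both sides of the comparison, since Hspa1a, Hspa1b, Hspb1 and Hspb6 were at least 1.5-fold lower in old muscle in both pairs and Hsph1 was 1.37-fold and 1.30-fold higher.

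Among the small heat shock genes, Hspb6 encodes HSP20, an abundant muscle protein that is phosphorylated by cyclic nucleotide signaling. Its locus spans chromosome 7 from 30539134 to 30559646 (mm10), an interval that Lin37 shares in the deposited values with a level of its own, while the RefSeq gene covers 30552535 to 30555443 on the plus strand. Hspb6 had 928 (Old 1) and 418 (Old 2) FPKM in old muscle and 920 (Young 1) and 2289 (Young 2) FPKM in young muscle. As deposited, the ages overlapped, because Old 1 lay just above Young 1. Within the pairs that share a scale, Hspb6 was 2.47-fold lower in Old 1 than in Young 2 and 2.20-fold lower in Old 2 than in Young 1. The log2 fold change was -1.22 (standard error 1.24). Hspb6 ranked between 30 and 86 among the 20340 gene labels, so these ratios concern some of the most abundant of the listed transcripts. The lists of loci are cut off and give no value for Acta1, for example, so the rank in the whole muscle is unknown.

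Hspb7 (chromosome 4 from 141420779 to 141425310, plus strand) is a heart and muscle small heat shock gene whose product binds filamin C. It had 134 (Old 1) and 63.6 (Old 2) FPKM in old muscle and 139 (Young 1) and 302 (Young 2) FPKM in young muscle. No old sample reached either young sample, though Old 1 missed Young 1 by a narrow margin. In the pairs Hspb7 was 2.26-fold and 2.19-fold lower in old muscle, and the log2 fold change was -1.14 (standard error 1.00). A lack of overlap of this kind was seen for 2 of the 10 genes, Hspb7 and Hspa1b, both lower in old muscle (exact permutation p = 0.333 for each, two-sided), against 1.93% of the 10266 genes. The opposite order was seen for 0 of 10, against 1.61%.

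Hspb1 (chromosome 5 from 135887919 to 135889563, plus strand) encodes HSP25, which protects actin filaments under stress. Its level was 152 (Old 1) and 79.7 (Old 2) FPKM in old and 127 (Young 1) and 249 (Young 2) FPKM in young muscle, and the ages overlapped. Hspb1 was 1.64-fold lower in Old 1 than in Young 2 and 1.60-fold lower in Old 2 than in Young 1 (log2 fold change -0.69, standard error 1.00). Of the stretches of 50 bases in its transcript, 51.6% also occur in a pseudogene, Hsp25-ps1, so its level depends on how reads with several matches were counted.

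Hspb8 (chromosome 5 from 116408495 to 116422864, minus strand), the partner of Bag3, did not share the direction of Hspb1, Hspb6 and Hspb7. It had 258 (Old 1) and 129 (Old 2) FPKM in old muscle and 118 (Young 1) and 235 (Young 2) FPKM in young muscle. The ratios in the pairs were alike, 1.10-fold higher in old muscle in both (log2 fold change 0.13, standard error 1.02), and Hspb3, a muscle gene of the same family, was near it at 1.12-fold and 1.11-fold higher. Bag3 itself (chromosome 7 from 128523583 to 128546979, plus strand) had 45.8 (Old 1) and 24.0 (Old 2) FPKM in old and 30.3 (Young 1) and 57.7 (Young 2) FPKM in young muscle. It was 1.26-fold lower in old muscle in both pairs (log2 fold change -0.33, standard error 0.94). Neither gene reached 1.5-fold, and in both the ages overlapped as deposited.

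Hspa1a (chromosome 17 from 34969359 to 34972156) and Hspa1b (chromosome 17 from 34956429 to 34959238) lie side by side on the minus strand and encode near-identical inducible HSP70 proteins, which are scarce in unstressed tissue. Hspa1a had 1.55 (Old 1) and 0.439 (Old 2) FPKM in old muscle and 1.15 (Young 1) and 3.38 (Young 2) FPKM in young muscle. Hspa1b had 1.01 (Old 1) and 0.240 (Old 2) FPKM in old muscle and 1.40 (Young 1) and 3.94 (Young 2) FPKM in young muscle. Both genes were low in Old 2 above all, and for Hspa1b no old sample reached either young sample.

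In the pairs, Hspa1a was 2.18-fold and 2.63-fold lower in old muscle (log2 fold change -0.68, standard error 1.02), though with 1 FPKM added to each value it no longer reached 1.5-fold in both. Hspa1b was 3.88-fold and 5.82-fold lower (log2 fold change -1.12, standard error 1.02). Fold changes on the log2(FPKM + 1) scale understate ratios at this level. Low genes were also less steady, and of 2122 genes with a mean of 1 to 3 FPKM, 4.34% were at least 2-fold lower in old muscle in both pairs. Of the stretches of 50 bases of the Hspa1b transcript, 62.3% occur in that of Hspa1a, so the division of reads between the copies is uncertain. The copies summed to 2.57 (Old 1) and 0.679 (Old 2) FPKM in old and 2.55 (Young 1) and 7.32 (Young 2) FPKM in young muscle. The sum, which does not depend on that division, was 2.85-fold and 3.76-fold lower in old muscle. Hspa1a overlaps 2225 bases of Gm20481 on the opposite strand, and the sources differ on whether the kit kept the strand, so reads of Gm20481 cannot be told apart with certainty.

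Hsph1 (chromosome 5 from 149616663 to 149636344, minus strand), the HSP110 that exchanges nucleotides on HSP70, had 21.4 (Old 1) and 11.2 (Old 2) FPKM in old muscle and 8.60 (Young 1) and 15.6 (Young 2) FPKM in young muscle. It was 1.37-fold and 1.30-fold higher in old muscle in the pairs (log2 fold change 0.38, standard error 0.94), while the ages overlapped. Hsph1 thus lay on the other side of the comparison from Hspa1a and Hspa1b, the genes with which its product works.

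Hsp90ab1 (chromosome 17 from 45567778 to 45573261, minus strand) is the HSP90 that most cells make without stress. Its level was 589 (Old 1) and 250 (Old 2) FPKM in old muscle and 160 (Young 1) and 296 (Young 2) FPKM in young muscle. It was higher in old muscle, by 1.99-fold in the pair of Old 1 and by 1.56-fold in the pair of Old 2 (log2 fold change 0.81, standard error 1.07), and Old 2 lay between the young samples. Hsp90aa1 (chromosome 12 from 110691036 to 110696395, minus strand), the inducible form, which also assists myosin folding in muscle, had 18.8 (Old 1) and 9.70 (Old 2) FPKM in old and 9.67 (Young 1) and 14.0 (Young 2) FPKM in young muscle. Its pairs differed, with a ratio of 1.35 for Old 1 over Young 2 and 1.00 for Old 2 over Young 1 (log2 fold change 0.21, standard error 0.94). Pseudogenes and other genes hold 58.5% of the stretches of 50 bases of the Hsp90aa1 transcript, against 4.49% for Hsp90ab1.

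**Figure D2:**
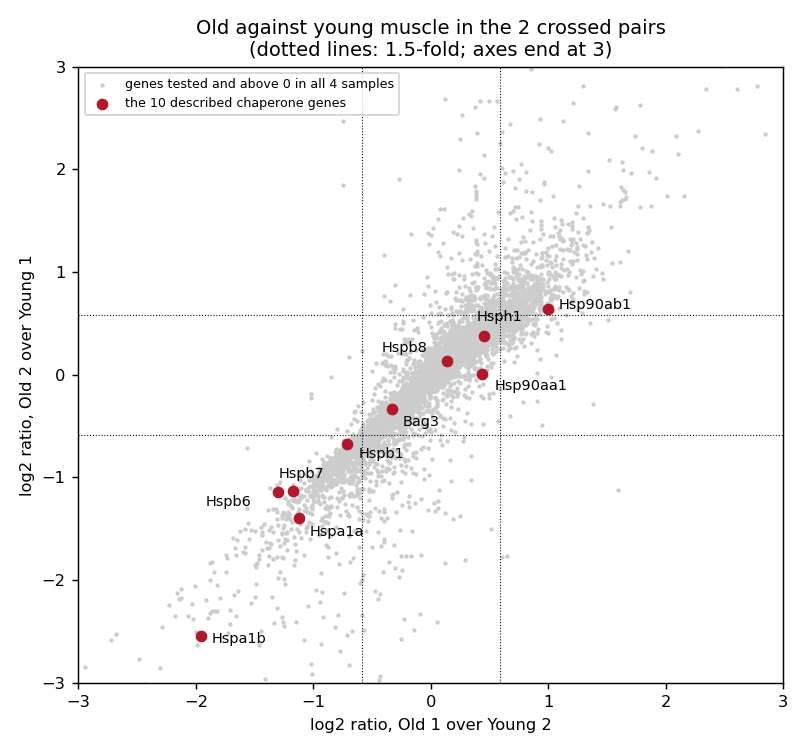
Log2 ratio of Old 1 over Young 2 (horizontal) against Old 2 over Young 1 (vertical) for the 10 chaperone genes and the 9293 tested genes above 0 in all 4 samples, with dotted lines at 1.5-fold and 73 genes beyond the axes. Hspa1b, Hspb6, Hspa1a, Hspb7 and Hspb1 fall below both lower lines, and Hsp90ab1 (0.99 and 0.64) is beyond both upper lines.

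The order of the 10 levels was the same in Old 1 and Old 2, with Hspb6 first, then Hsp90ab1, Hspb8, Hspb1, Hspb7, Bag3, Hsph1, Hsp90aa1, Hspa1a and Hspa1b. In young muscle Hspb6 was again first, but Hspb7 and Hspb1 stood above Hspb8 in both samples, and Hspa1b stood above Hspa1a. Hspb7 and Hsp90ab1 traded places between Young 1 and Young 2, as did Hsph1 and Hsp90aa1, so these neighbors do not differ beyond the spread between samples.

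Ratios between genes of the same sample are free of any factor common to that sample, but not of one that changes with the level of a gene. They are given here as a description of the group in each sample. The ratio of Hspb6 to Hspb8 was 3.60 in Old 1 and 3.24 in Old 2, against 7.82 in Young 1 and 9.75 in Young 2. For Hspb7 to Hspb8 it was 0.518 and 0.494 in old muscle, against 1.19 and 1.28 in young muscle. For Hspb1 to Hspb8 it was 0.589 and 0.618, against 1.08 and 1.06. Hspb8 was thus the second of these 4 genes in old muscle and the last in young muscle.

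The ratio of Hspb8 to Bag3, which act as a complex, was 5.63 in Old 1 and 5.38 in Old 2, against 3.89 in Young 1 and 4.07 in Young 2. That of Hspb6 to Hsp90ab1 was 1.58 and 1.67 in old muscle, against 5.74 and 7.74 in young muscle. Between the HSP90 genes, Hsp90ab1 exceeded Hsp90aa1 by 31.2 and 25.8 in old muscle and by 16.6 and 21.2 in young muscle. Hspb6 to Hsp90ab1 showed the widest gap between the ages among these ratios, and the ages did not overlap in any of them. No test was made on the ratios, which were chosen with the levels known. The share of all pairs of genes without such overlap was not counted. It may be large, because genes at medium levels scattered less within an age than between ages.

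**Figure D3:**
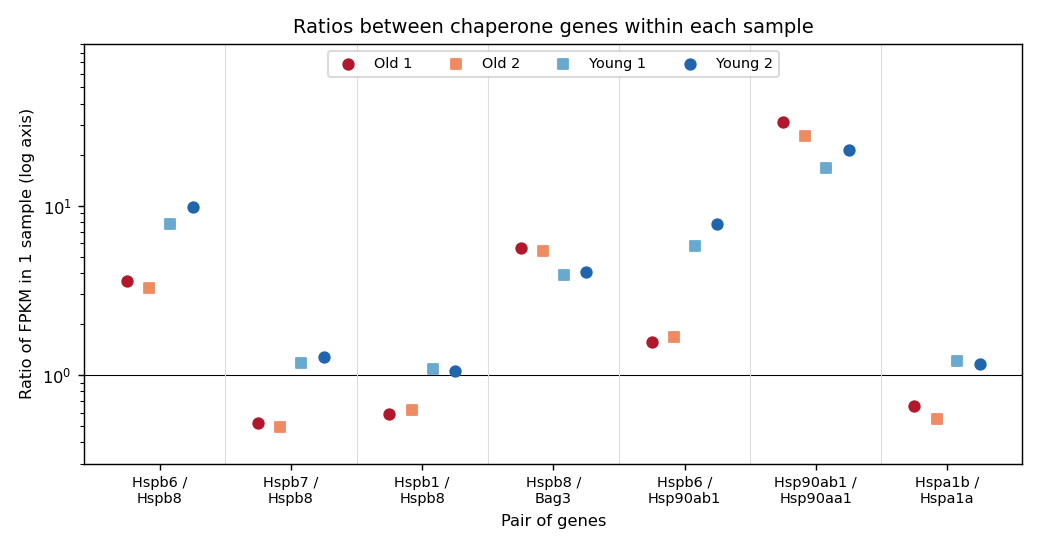
Ratio of FPKM (log axis) between the named genes within each sample, where the line at 1 marks equal levels. In every pair of genes shown the old samples lie together on the same side of the young samples, with Hspb6 to Hsp90ab1 at 1.58 and 1.67 in old and 5.74 and 7.74 in young muscle. How often other pairs of genes show this was not counted.

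The wider chaperone system was read from lists of 88 further genes, of which 68 had a value of their own and 63 were tested. By limma 0 of 63 passed the threshold. Of 62 above 0 in all 4 samples, 5 (8.06%) were at least 1.5-fold higher in old muscle in both pairs and 3 (4.84%) were lower, near the background of 6.64% and 9.37%. The median log2 fold change of the 63 was 0.10.

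Among the other HSP70 genes, 1 of 6 was lower and 0 were higher (median log2 fold change -0.18 over 7 tested). The lower gene was Hspa12a, an atypical HSP70, with 10.6 (Old 1) and 0.328 (Old 2) FPKM in old and 0.744 (Young 1) and 21.5 (Young 2) FPKM in young muscle. Its samples of an age differed far more than by the common factor. Of the HSP40 genes, which feed clients to HSP70, 2 of 14 were higher and 0 were lower (median 0.03). Dnajc2, which binds the ribosome, was 2.92-fold and 2.13-fold higher in old muscle in the pairs, and Dnajc21, a ribosome assembly factor, was 2.04-fold and 1.67-fold higher.

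Of the HSP90 co-chaperones, 1 of 15 was lower and 0 were higher (median 0.10). That gene was Fkbp5, which tunes the glucocorticoid receptor, with 5.87 (Old 1) and 2.81 (Old 2) FPKM in old muscle and 12.7 (Young 1) and 25.6 (Young 2) FPKM in young muscle. Fkbp5 was 4.36-fold and 4.52-fold lower in old muscle, and its ages did not overlap. Unc45b and Smyd1, the co-chaperones of muscle myosin, did not reach 1.5-fold.

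Of the BAG genes, exchange factors and other partners of HSP70, 2 of 7 were higher and 0 were lower (median 0.24). St13, which stabilizes HSP70, was 1.67-fold and 1.51-fold higher, and Sil1, the exchange factor of the endoplasmic reticulum HSP70, was 1.79-fold and 1.81-fold higher. Of the chaperonin and prefoldin subunits, which fold actin and tubulin, 0 of 11 reached 1.5-fold in either direction (median 0.20). In the list of other small heat shock genes, 1 of 2 was higher, Hspb11, at 1.92-fold and 2.82-fold (median 0.49 over the 2). This gene carries a symbol of the family, but whether its product belongs to it was not examined here. Hspb11 had 8.36 (Old 1) and 2.14 (Old 2) FPKM in old and 0.760 (Young 1) and 4.36 (Young 2) FPKM in young muscle. As for Hspa12a, its samples of an age differed by more than the common factor. Cryab and Hspa8 had no value in these samples, whose lists of loci are cut off, and were not analysed here. Their levels are unknown, which is not the same as a level of 0.

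The factors that act on heat shock elements had similar ratios in both pairs. Hsf1 had 26.4 (Old 1) and 13.0 (Old 2) FPKM in old and 15.9 (Young 1) and 33.0 (Young 2) FPKM in young muscle. Hsf2 had 14.9 (Old 1) and 7.45 (Old 2) FPKM in old and 9.60 (Young 1) and 19.1 (Young 2) FPKM in young muscle. Hsf1 was 0.799 and 0.813 of its young level in the pairs and Hsf2 0.781 and 0.776, so 0 of 2 reached 1.5-fold (median -0.31).

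In the list for autophagy of Bag3 clients, 1 of 5 genes was lower and 0 were higher (median -0.10). That gene was Flnc, filamin C of the Z-disc, the client of Bag3 and Hspb8 and a binding partner of Hspb7. Flnc had 94.6 (Old 1) and 42.9 (Old 2) FPKM in old muscle and 92.5 (Young 1) and 245 (Young 2) FPKM in young muscle. It was 2.59-fold and 2.15-fold lower in old muscle, ratios close to those of Hspb6 (2.47 and 2.20) and Hspb7 (2.26 and 2.19). Of the 9293 genes above 0 in all samples, 2.60% were at least 2-fold lower in both pairs. A link between these genes was not tested.

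**Figure D4:**
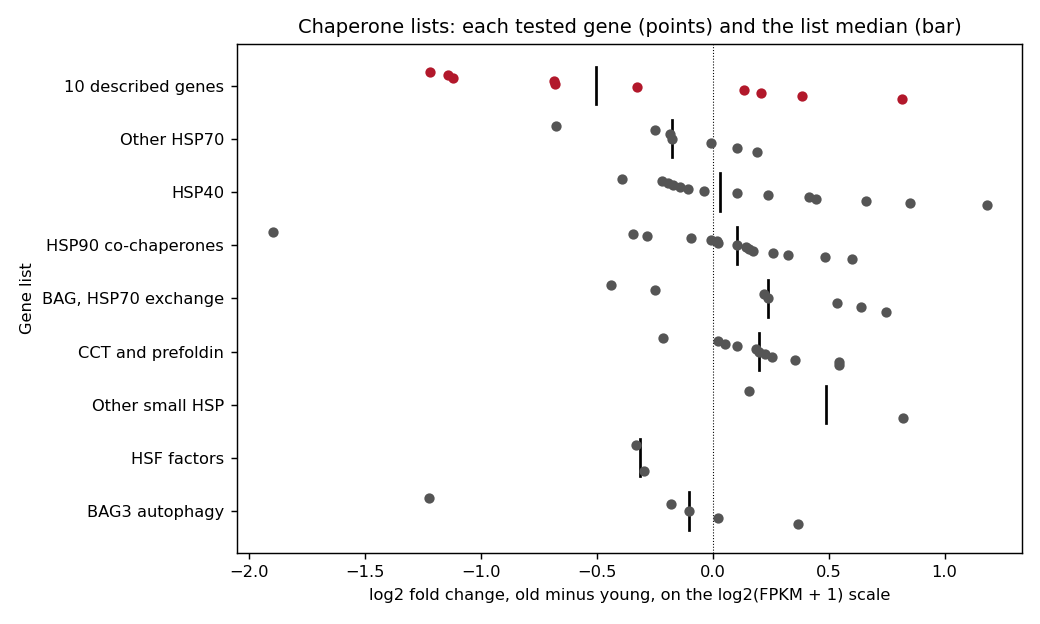
Log2 fold change (old minus young, on the log2(FPKM + 1) scale) of each tested gene in the group of 10 and in 8 chaperone lists, where points are genes and bars are medians. The median of the 10 genes was -0.50, while those of the other lists lay between -0.31 and 0.49, with Fkbp5 at -1.90 as the lowest point.

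The muscle label was met by markers such as Tnnc2, Pvalb and Actn3, while Ckm was listed at 0 in all 4 samples. Marker genes of other fibers and cells also differed between the ages, in the samples that gave the chaperone values. Of 7 slow-fiber markers, 6 were at least 1.5-fold higher in old muscle in both pairs and 5 passed the limma threshold, and their summed level was 501 to 1364 FPKM in old and 74.7 to 163 FPKM in young samples. Within the same samples, Hspb6, Hspb7 and Hspb1 were lower in old muscle in both pairs. Hspb8 was slightly higher (1.10-fold in both), as was Hspb3 (1.12-fold and 1.11-fold). A link between these genes and fiber type was not tested. Of 8 immediate-early genes, which answer stress and handling, 6 had a value, and 2 of 5, Fos and Egr1, were higher (4.26-fold and 5.01-fold for Fos).

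Of 6 fibroblast markers, 3 were lower, all of them collagens, with summed levels of 92.2 to 179 FPKM in old and 132 to 261 FPKM in young samples. For adipocytes 1 of 4 was higher (summed 167 to 447 against 184 to 501 FPKM), for macrophages and leukocytes 1 of 4 was lower (1.97 to 7.48 against 2.57 to 10.6 FPKM), and for endothelium 1 of 5 was lower (31.6 to 61.4 against 41.0 to 78.4 FPKM). For smooth muscle 0 of 3 reached 1.5-fold (39.5 to 77.4 against 48.4 to 92.3 FPKM), and for skeletal muscle 1 of 7 was lower (9697 to 68473 against 11401 to 54232 FPKM). The adipocyte marker Cfd was at 0 in Old 2 and Young 1, against 119 FPKM in Old 1 and 147 FPKM in Young 2. The adipocyte sums therefore hold it in Old 1 and Young 2 only. No list was at 0 as a whole. Their part in the chaperone ratios was not tested, and in whole muscle fewer cells of a type and less RNA per cell cannot be told apart.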

How the data were processed

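Muscle mRNA was sequenced in 2 samples per age. The deposited values are FPKM per locus, which the authors estimated sample by sample with Cufflinks 2.1.1 over RefSeq genes. The alignments behind them came from TopHat2 2.0.10 on mm10, after read trimming and deduplication. Cuffdiff 2.1.1, the test of the authors, needs the alignments and was not run here.

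Cut-off last lines were dropped. The lists of loci, sorted by chromosome name as text, stop in chromosome 7 or early in chromosome 8, and 542 loci that some samples lacked were not tested. Of 20605 loci, those with the same symbol were summed. FPKM hold no counts, so depth is unknown and counting error could not be given. log2(FPKM + 1) was tested with limma 3.58.1 in R 4.3.3 (lmFit, eBayes with a trend, Benjamini-Hochberg over all genes, adjusted p under 0.05) for genes that reached 1 FPKM in 2 or more samples. The fit was tested on simulated data. Ratios of Old 1 to Young 2 and of Old 2 to Young 1 used FPKM as deposited, without a test. Shared stretches of 50 bases were counted in GENCODE M21 transcripts, and windows came from RefSeq.

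All 10 genes are named. Of the wider lists, genes at least 1.5-fold in both pairs with at least 5 FPKM in 1 sample are named, with Hsf1, Hsf2, Cryab and Hspa8. Hspb3, Unc45b, Smyd1 and the markers named were chosen after their values were seen. The genes and lists were chosen with earlier results of these data known. Genes that share a deposited value and symbol with a neighbor, such as Stub1 and Des, were not counted in the lists. Over the genes tested, same-numbered samples deviated from the mean of their age in opposite directions (correlation -0.885). With 2 samples per age, the value for the crossed samples is its mirror image (0.885). This gives which samples share a scale, and cannot tell which were prepared or sequenced together. Alternatives were another pseudocount, filters, scalings, locus choice, pairing, variance model, averaging the samples of an age, leaving out each sample, and for the pairs another fold and FPKM + 1. Median scaling over the genes tested and each crossed pair alone were added after seeing the data. Scripts ran in Python 3.11.15 with scipy 1.17.1, numpy 2.4.6 and pandas 2.3.3, and figures were drawn with matplotlib 3.10.9.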

Additional observations from a re-analysis of the deposited data

How the results depend on the processing

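The direction of Hspa1a, Hspa1b, Hsp90ab1, Hspb1, Hspb6 and Hspb7 was kept under all alternatives run, but leaving out 1 sample moved their log2 fold changes widely. These ranged from -1.19 to -0.17 for Hspa1a, from -1.64 to -0.60 for Hspa1b, from 0.20 to 1.43 for Hsp90ab1, from -1.17 to -0.21 for Hspb1, from -1.88 to -0.56 for Hspb6 and from -1.70 to -0.59 for Hspb7. Leaving out 1 sample leaves an age with only its higher or only its lower sample, and this turned the log2 fold change of the other 4 genes. It ranged from -0.24 to 0.65 for Hsp90aa1, from -0.36 to 0.63 for Hspb8, from -0.053 to 0.82 for Hsph1 and from -0.78 to 0.13 for Bag3. Of the 10 genes, 0 passed the limma threshold as deposited. With quantile normalization 1 passed, lower in old muscle (Hspb7, adjusted p = 0.0165 from limma), and when the crossed pairs formed the block, 3 higher and 6 lower ones did, all but Hsp90aa1, where 27.4% of all genes were called higher and 32.9% lower. With median scaling 0 passed (lowest adjusted p = 0.0505 from limma, for Hspb6). With the replicate block of the labels, 0 of 10 passed. At 2-fold in both crossed pairs, 0 of the 10 genes were higher and 4 lower, and with FPKM + 1 the 5 lower genes at 1.5-fold became 4, without Hspa1a.

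Over all genes, the counts past the threshold were 18 higher and 13 lower. They were 0 and 0 without a filter (23 and 29 at an unadjusted p under 0.05), 4 and 2 when all 4 samples had to reach 1 FPKM, 33 and 31 with median scaling, 119 and 188 with quantile normalization, 2 and 3 with the replicate block, and 2812 and 3374 when the crossed pairs formed the block. Leaving out 1 sample gave 2 to 6 higher and 3 to 10 lower. The depth of the samples is unknown, which limits Hspa1a and Hspa1b most, as they lie near 1 FPKM.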
